A study of Cricetiscus sungorus with 24 samples.

Results

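Cytosolic ribosomal protein genes encode the proteins that, with ribosomal RNA, build the small and the large subunit of the ribosome. Their symbols begin with Rps for the small subunit and with Rpl for the large subunit, and Rpsa, Fau, Rplp0, Rplp1 and Rplp2 complete the set. They were chosen here by symbol alone, leaving out the kinases of ribosomal protein S6 and the pseudogenes, and each gene was represented by its mouse transcript with most reads. In experiment 1 this gave 90 symbols of 9681 genes, 36 of the small and 54 of the large subunit. In experiment 2 it gave 91 symbols of 15842 genes, 36 of the small and 55 of the large subunit. Of these symbols, 78 are standard subunits, 32 small and 46 large, and stood in both experiments. The others are near-identical copies or paralogs, apart from Rps19bp1, which encodes a protein that binds RPS19 and is no ribosomal subunit itself.

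The kidneys came from Djungarian hamsters (*Phodopus sungorus*), a species that adjusts body mass, fur and reproduction to day length. Experiment 1 held adult males in long photoperiod (LP, 16 h of light per day) or after 12 or 28 weeks in short photoperiod (SP12wk and SP28wk, 8 h of light per day), with n = 4 in each group. Experiment 2 held adult females after 8 weeks in short photoperiod that were given prolactin (PRL, the preparation NIAMDD-O-PRL, 18 µg per intraperitoneal injection) or the vehicle of dimethyl sulfoxide and saline (SAL) on 3 days, with n = 6 in each group, so that both groups shared the short photoperiod and the injections. Each experiment had a nanopore flow cell of its own, shared by its 12 libraries. Each library stands for 1 animal, so that p-values measure the spread between animals together with that between their libraries.

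All cells need ribosomes, and a ribosome holds a single copy of each subunit protein, except for the P-stalk proteins, which are present in several copies. The mRNAs of these genes are short and abundant, and they carry a terminal oligopyrimidine (TOP) motif at the start, through which their translation follows growth signals. In the kidney, growth of the tubule is accompanied by the making of ribosomes. mRNA levels, which are measured here, do not show how much of an mRNA is translated. In pieces of whole tissue, fewer cells of a type and less RNA per cell cannot be told apart.

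Reads on 1 transcript per gene numbered 15687 to 57585 per library in experiment 1 and 174053 to 756523 in experiment 2. Levels are given in CPM, the reads of a gene scaled to a library total of 1000000, and are not divided by mRNA length because no lengths were used here. A single read was worth 17.4 to 63.7 CPM in experiment 1 and 1.32 to 5.75 CPM in experiment 2. Between 77 and 89 of the 90 members had a read in a library of experiment 1, and between 88 and 91 of the 91 members in experiment 2. Proximal tubule markers (11 of 13 in the table, without Cubn and Kap) summed to 1907 to 3571 CPM in experiment 1 and to 1822 to 5582 CPM in experiment 2. Summed podocyte, endothelial and immune markers stayed at or below 198 CPM in experiment 1 and 247 CPM in experiment 2, and Ptprc and Cd3e of the immune list and, in experiment 1, Aqp2 of the collecting duct were not listed. No marker gene passed an adjusted p of 0.05 in any comparison.

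Ribosomal protein genes took between 7.91% and 20.5% of a library's reads in experiment 1 and between 15.6% and 23.2% in experiment 2. The small subunit took 8.61%, 4.35%, 6.50% and 10.2% in the 4 LP libraries, 8.35%, 9.06%, 8.94% and 7.91% in SP12wk and 8.17%, 8.85%, 9.36% and 9.16% in SP28wk. The means were 7.41% ± 2.54 in LP, 8.57% ± 0.532 in SP12wk and 8.89% ± 0.522 in SP28wk (SD, n = 4). LP held both the highest and the lowest of the 12 libraries, and the groups overlapped.

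The large subunit took 8.91%, 3.56%, 6.58% and 10.4% in LP, 7.77%, 9.32%, 9.93% and 8.85% in SP12wk and 8.03%, 9.38%, 10.2% and 9.82% in SP28wk. The means were 7.35% ± 2.97, 8.97% ± 0.914 and 9.36% ± 0.945 (SD, n = 4). The order of the LP libraries was the same as for the small subunit, with replicate 2 lowest and replicate 4 highest. The ratio of large to small subunit reads was 0.817 to 1.12 over the 12 libraries, with LP replicate 2 at the lower end. Both subunits together came to 14.8% ± 5.50 in LP, 17.5% ± 1.30 in SP12wk and 18.2% ± 1.47 in SP28wk (SD, n = 4). LP replicates 1 and 4 alone had a mean of 19.0%.

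In experiment 2 the small subunit took 7.44% to 10.7% of reads in SAL, with a median of 8.89%, and 6.95% to 10.2% in PRL, with a median of 8.44%. The large subunit took 9.11% to 12.4% in SAL, with a median of 10.5%, and 8.61% to 11.8% in PRL, with a median of 10.2%. The means of both subunits together were 19.6% ± 2.45 in SAL and 18.7% ± 2.43 in PRL (SD, n = 6), a difference smaller than the SD of either group. The ratio of large to small was 1.11 to 1.32. These shares count some reads more than once, because a read can be listed under a gene and under its near-identical copy.

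**Figure D1:**
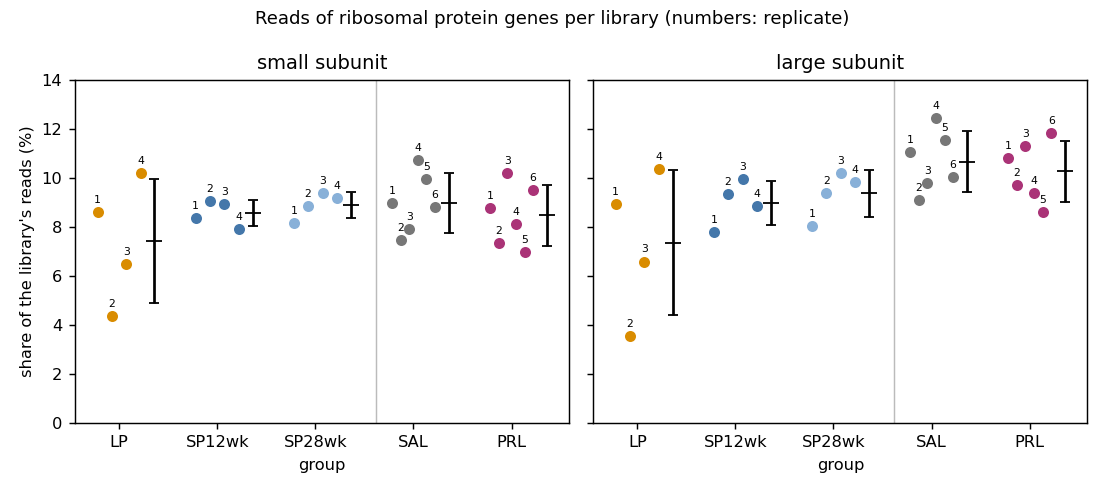
Percent of each library's reads (y axis) on small and on large subunit genes, 1 point per library by group, with group mean and SD. LP spans 4.35% to 10.2% for the small and 3.56% to 10.4% for the large subunit, wider than SP12wk, SP28wk, SAL or PRL.

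LP replicate 2 stood apart among the 12 libraries of experiment 1, and some results below are also given without it, alone or together with LP replicate 3. These 2 had the lowest ribosomal protein shares of LP, and leaving out both, which takes away the lower end of LP, was chosen after their shares were seen. It was the lowest of the 12 for 46 of the 78 standard subunits and the highest for 4, Rpl5, Rpl6, Rps10 and Rps19. It had no read for 10 of them, among which were Fau, Rpl39, Rpl4, Rps2, Rps26 and Rpsa. Ranked across the 78 genes, its levels had a median Spearman correlation of 0.512 with the other libraries of the experiment, whereas each of the other 11 had a median between 0.842 and 0.907 and the libraries of experiment 2 had medians between 0.941 and 0.974. These correlations are over genes of the same libraries, which are not independent, and the libraries of experiment 2 were the deeper ones.

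The gap in LP replicate 2 differed from gene to gene. Fau, the fusion of a ubiquitin-like protein with RPS30, had 3293, 0, 1443 and 3379 CPM in LP replicates 1 to 4 and 2657 to 4166 CPM in the 8 short-photoperiod libraries. Rpl39, a very short protein of the exit tunnel, had 2352, 0, 1665 and 2525 CPM in LP and 2148 to 3162 CPM in short photoperiod. Rpl38 had 5221, 56.1, 1609 and 3807 CPM in LP. In all 3 genes replicate 2 was at 1 read or none, and replicate 3 was the next lowest of LP.

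Rps19, the subunit most often mutated in Diamond-Blackfan anemia, behaved in the opposite way, with 753, 2412, 1054 and 1049 CPM in LP and 1028 to 1203 CPM in short photoperiod. Rpl5, which binds 5S ribosomal RNA, had 753, 785, 721 and 583 CPM in LP. Rps7 had 2258, 3477, 3329 and 5205 CPM in LP, so that replicate 2 lay within its group. The library was thus not lower for every subunit. Summed short mRNAs of the respiratory chain moved with it, at 29838 CPM in LP replicate 2, 68696 CPM in LP replicate 3 and 90783 to 121750 CPM in short photoperiod. Other TOP mRNAs moved the other way, at 17387 CPM in LP replicate 2, 15815 CPM in LP replicate 3 and 10300 to 13603 CPM in short photoperiod. The part of these differences in the results below was not tested.

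The first comparison asked what 12 weeks of short photoperiod did to these genes. No ribosomal protein gene reached an adjusted p of 0.05 (edgeR's quasi-likelihood test, Benjamini-Hochberg adjustment over all genes), and 1 of all 5086 genes tested did, or 0.0197%. At an unadjusted p under 0.05, 7 of 87 members were higher in SP12wk and none was lower, which is 8.05% of members against 7.27% of all genes, of which 4.58% were higher and 2.69% lower. All 7 were large subunit genes, among them Rpl15, Rpl21, Rpl23a, Rpl3 and Rpl41. DESeq2 passed none of the members and 0.0% of all genes after adjustment, with 7 members at an unadjusted p under 0.05 against 2.56% of all genes.

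Rpl3, a large subunit protein close to the peptidyl transferase centre, had the smallest p among the ribosomal protein genes in this comparison. It was at 282, 112, 55.5 and 233 CPM in LP and at 613, 637, 351 and 367 CPM in SP12wk, so that all libraries of SP12wk were above all of LP. In SP28wk it was at 119, 290, 229 and 226 CPM, below every SP12wk library. The log2 fold change was 1.56 ± 0.57 (SE) for SP12wk against LP with an adjusted p = 0.575, and -0.95 ± 0.52 for SP28wk against SP12wk with an adjusted p = 0.902. LP held 1 to 6 reads of Rpl3 in a library, and without LP replicates 2 and 3 the first value was 0.90.

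Rpl21 had 1552, 112, 999 and 1476 CPM in LP, 1431, 1912, 2560 and 2317 in SP12wk and 1146 to 1685 CPM in SP28wk, with a log2 fold change of 1.06 ± 0.46 (SE, adjusted p = 0.600) for SP12wk against LP. Rpl15 had 611, 505, 555 and 466.1 CPM in LP and 531, 1339, 1205 and 1046 CPM in SP12wk, with a log2 fold change of 1.09 ± 0.49 (SE, adjusted p = 0.600). For both, 1 SP12wk library lay within the range of LP. Rpl23a, near the tunnel exit where nascent chains meet signal recognition particle, had 1552, 112, 943 and 932 CPM in LP and 1431 to 2063 CPM in SP12wk. Its lowest LP value was again that of replicate 2.

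Fitted values were below 0 for 15 of 87 members, of which Rps19bp1, with 1 read in LP and none in SP12wk, gives no fold change. Rpl22 had 1223, 1739, 1554 and 2719 CPM in LP and 735 to 1530 CPM in SP12wk, with a log2 fold change of -0.45 ± 0.46 (SE) that ranged from -0.60 to -0.05, the latter without LP replicate 4, when single libraries were left out. Rps7 and Rps12 had log2 fold changes of -0.29 ± 0.46 and -0.25 ± 0.46, and both rested on LP replicate 4, without which they were at 0.09 and 0.04. Groups did not overlap for 4 members that were higher in SP12wk, among them Rpl10, Rpl3 and Rpl35, against 1.12% of all genes, and for no member that was lower, against 1.55%.

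SP12wk against LP had a median log2 fold change of 0.22 over the 36 small subunit genes tested and 0.33 over the 51 large. These medians lay 0.21 and 0.32 above the median of 0.00 over all genes. Fitted values were above 0 for 28 of 36 and 44 of 51 members, 72 of 87 in all or 82.8%, against 52.6% of all genes. Scaled to library totals in place of TMM they were above 0 for 58 of 87, or 66.7%, against 41.5%. Without LP replicates 2 and 3 they were above 0 for 33 of 87, against 50.6% of all genes, and the medians were -0.13 for the small and -0.06 for the large subunit, on the other side of 0. Without LP replicate 2 alone the medians were -0.0012 and 0.091, with 50 of 87 members above 0, and without LP replicate 3 alone 0.13 and 0.30, with 62 of 87. Without LP replicate 4, the highest of LP, they were 0.65 and 0.73, with 81 of 87 above 0. None of the medians with libraries left out is relative to that of all genes.

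**Figure D2:**
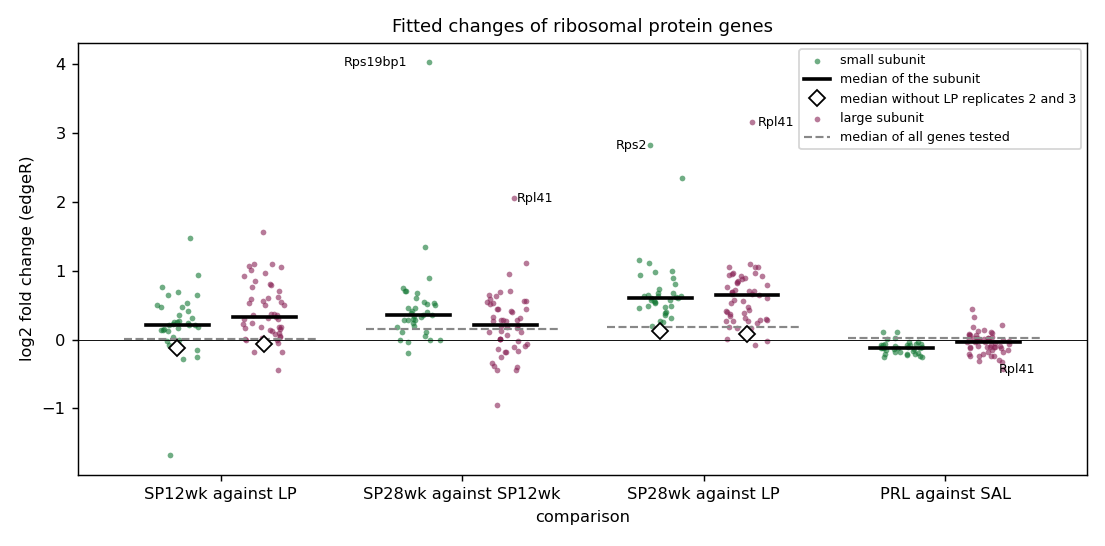
Fitted log2 fold change (y axis) of every member tested in the 4 comparisons, small and large subunit apart, 1 point per gene. Black bars are the medians of a subunit, the dashed grey line is the median of all genes, and diamonds are the medians without LP replicates 2 and 3, which fall to -0.13 and -0.06 in SP12wk against LP and to 0.12 and 0.08 in SP28wk against LP. Rpl41 is the outlying large subunit gene in both comparisons of SP28wk, and Rps19bp1, with no read in SP12wk, is the highest point of SP28wk against SP12wk.

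After 28 weeks in short photoperiod hamsters return by themselves towards their long-photoperiod state, and SP28wk against SP12wk follows that change. Of the ribosomal protein genes, Rpl41 rose and no other passed, while 7 of 5086 genes did, or 0.138%. At an unadjusted p under 0.05, 5 of 87 members were higher, Rpl17, Rpl18, Rpl41, Rps19bp1 and Rps2, and none was lower, against 6.1% of all genes, 4.6% higher and 1.49% lower. With LP replicates 2 and 3 left out of the shared fit, the count was 15 of 87, 14 of them higher, against 6.94% of all genes, and Rpl41 was again the one that passed adjustment, among 0.389% of genes. DESeq2 passed none of the members and 0.0393% of all genes, with Rpl41 higher and Rpl3 lower at an unadjusted p under 0.05 against 1.06% of all genes.

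Rpl17 had 1390, 1721, 1857 and 2261 in SP12wk and 2016, 2697, 3542 and 4098 CPM in SP28wk, with a log2 fold change of 0.96 ± 0.46 (SE, adjusted p = 0.740). Its pseudogene copy Rpl17-ps8 carried the same counts, so that the reads cannot be divided between them. Rpl18 had 368, 382, 1205 and 537 in SP12wk and 711, 996, 1743 and 1268 CPM in SP28wk, with a log2 fold change of 1.11 ± 0.47 (SE, adjusted p = 0.715). The groups overlapped for both genes. Rps19bp1 had no read in any SP12wk library, 1 read in all of LP and 9 reads in all of SP28wk, at most 3 in a library, so that no fold change is given. In experiment 2 it had 92.8 to 144 CPM in every library.

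Below SP12wk without overlap were Rpl26, Rpl3, Rpl35, Rpl36a and Rpl37a, against 1.53% of all genes, and above it without overlap were Rpl11, Rpl32, its copy Rpl32l, Rpl39, Rps19bp1 and Rps7, against 1.85%. Rpl35 had 3066, 3251, 3162 and 3363 in SP12wk and 2095, 2241, 2028 and 2067 CPM in SP28wk, with a log2 fold change of -0.44 ± 0.45 (SE, adjusted p = 0.980). Rpl37a had 3515, 4271, 3966 and 3504 in SP12wk and 2688, 2946, 2571 and 2188 CPM in SP28wk. In both genes the libraries of a group lay close together, whereas the model used a spread shared with LP, which was at 2822, 337, 2164 and 2253 CPM for Rpl35. Rpl36a had 1355 to 2119 in SP12wk and 1086 to 1286 CPM in SP28wk.

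The medians of SP28wk against SP12wk were 0.36 for the small and 0.21 for the large subunit. They lay 0.20 and 0.05 above the median of 0.16 over all genes. Fitted values were above 0 for 67 of 87 members, or 77.0%, against 58.3% of all genes, and for 55 of 87, or 63.2%, against 50.8% when scaled to library totals. The deepest library, SP28wk replicate 4, also had the lowest TMM factor of the experiment, 0.770. The highest factors were those of LP replicates 2 and 3, 1.41 and 1.25.

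SP28wk against LP compared hamsters late in short photoperiod with those that had stayed in LP. Rpl41 rose and was the only member that passed, among 11 of 5086 genes, or 0.216%. At an unadjusted p under 0.05, 17 of 87 members were higher and none was lower, which is 19.5% against 8.61% of all genes, 6.69% higher and 1.93% lower. They included Fau, Rps2, Rps26, Rps9 and Rpsa of the small subunit and Rpl15, Rpl17, Rpl18, Rpl32, Rpl39, Rpl41 and Rpl9 of the large subunit. Scaled to library totals, 4 of 87 were at that level, among them Rpl39, Rpl41 and Rps2, against 7.45% of all genes. Without LP replicates 2 and 3, there were 3, Rpl41, Rps19bp1 and Rps2, against 3.22%. DESeq2 had 3 as well, Rpl36, Rpl41 and Rps2, against 2.36%, and passed Rpl41 after adjustment, among 0.0393% of all genes. Groups did not overlap for 3 members that were higher in SP28wk, Rpl15, Rpl39 and Rpl41, against 1.57% of all genes, and for none that was lower, against 1.73%. Without LP replicate 4, which was the highest LP library, 5 of 87 members passed adjustment in edgeR, among 54 of 4888 genes tested.

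Rpsa, the laminin receptor homologue at the solvent side of the small subunit, had 235, 0, 333 and 544 CPM in LP and 237, 539, 600 and 608 CPM in SP28wk, with a log2 fold change of 1.11 ± 0.52 (SE, adjusted p = 0.538). The groups overlapped, and the gene had no read in LP replicate 2, where 3 reads would be 168 CPM.

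Rps2, at the mRNA entry of the small subunit, was the least read standard small subunit gene of experiment 1. Its levels were 0, 0, 111 and 38.8 CPM in LP, 40.9, 0, 301 and 56.5 in SP12wk and 39.5, 249, 400 and 191 CPM in SP28wk. These are 0 to 2 reads in LP, 0 to 6 in SP12wk and 1 to 14 in SP28wk, and the groups overlapped. The log2 fold change of SP28wk against LP was 2.82 ± 0.80 (SE, adjusted p = 0.103), and a two-sided exact permutation test of the means gave p = 0.0571. In experiment 2 it had 477 to 639 CPM in SAL and 427 to 562 CPM in PRL; every one of these libraries was above every library of experiment 1.

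The medians of SP28wk against LP were 0.60 for the small and 0.65 for the large subunit. They lay 0.42 and 0.47 above the median of 0.18 over all genes. Fitted values were above 0 for 85 of 87 members, or 97.7%, against 58.7% of all genes. The exceptions, Rpl6l and Rpl30, had log2 fold changes of -0.08 ± 0.72 and -0.03 ± 0.45. Scaled to library totals, 69 of 87 or 79.3% were above 0, against 44.2%. Without LP replicate 2 alone the medians, not relative to all genes, were 0.33 for the small and 0.34 for the large subunit. Without LP replicates 2 and 3 they were 0.12 and 0.08, beside 0.15 over all genes, and 56 of 87 members or 64.4% were above 0, against 59.4% of all genes. Without LP replicate 4, at the other end of LP, they were 0.91 and 0.92, and 84 of 87 members were above 0. The median SE of a member was 0.46 on the log2 scale in each of the comparisons of experiment 1. Changes of a single subunit under 2-fold were thus hardly detectable at this depth and spread, and larger ones could be missed. In SP12wk against LP fitted values of members reached 1.56 on the log2 scale, and no member passed.

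Rpl41 encodes the smallest ribosomal protein, a basic peptide of the bridge between the subunits. Its levels were 611, 56.1, 55.5 and 544 CPM in LP, 695, 510.0, 1255 and 311 in SP12wk and 830.0, 1577, 3885 and 3369 CPM in SP28wk. These rest on 13, 1, 1 and 14 reads in LP, 17, 8, 25 and 11 in SP12wk and 21, 38, 136 and 194 in SP28wk. Every SP28wk library was above every LP library, while SP28wk replicate 1 lay within the range of SP12wk.

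The means of Rpl41 were 317 ± 303 CPM in LP, 693 ± 406 in SP12wk and 2415 ± 1448 CPM in SP28wk (SD, n = 4), a ratio of 7.63 between SP28wk and LP and of 3.49 between SP28wk and SP12wk. The log2 fold change in edgeR's quasi-likelihood test, with the Benjamini-Hochberg adjusted p, was 3.15 ± 0.51 (SE, adjusted p = 1.74e-06) for SP28wk against LP and 2.05 ± 0.47 (SE, adjusted p = 0.0132) for SP28wk against SP12wk. SP12wk against LP was at 1.10 ± 0.53 and did not pass. An exact permutation test of mean CPM, two-sided, gave p = 0.0286 for SP28wk against LP, the smallest that 4 against 4 libraries allow, and p = 0.0571 for SP28wk against SP12wk.

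Rpl41 passed in SP28wk against LP under 16 of 17 other settings, with log2 fold changes of 2.23 to 3.62 and adjusted p between 3.32e-07 and 0.654, and the lowest of these changes was that without LP replicates 2 and 3 (adjusted p = 0.000204). The exception was the sum over all transcripts of a gene. In SP28wk against SP12wk it passed under 8 of 16 settings, with log2 fold changes of 1.69 to 2.43 and adjusted p between 0.00432 and 1.00, and it no longer passed without SP28wk replicate 3 (adjusted p = 0.729) or 4 (adjusted p = 0.351), the libraries with most of its reads. The predicted gene Gm31458 carried nearly the same counts, 477 against 479 reads over the 12 libraries and equal in 11, so that the reads of both symbols cannot be told apart.

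**Figure D3:**
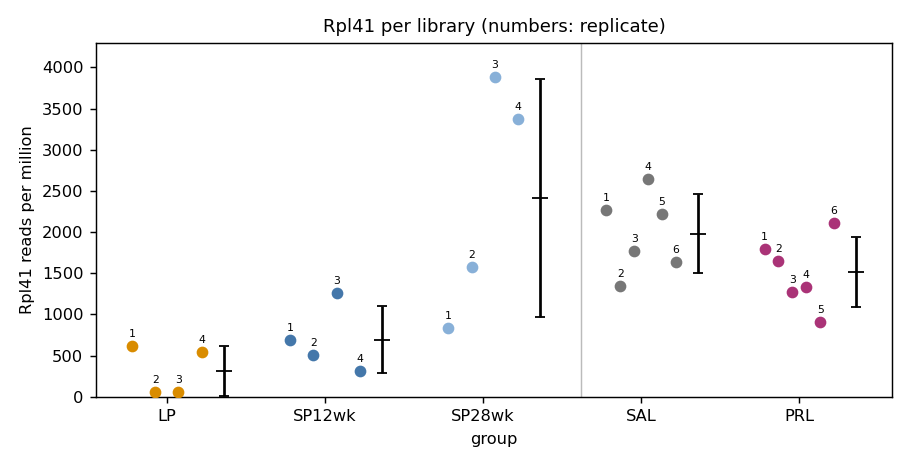
Level of Rpl41 in CPM (y axis) in every library of the 5 groups, 1 point per library, with group mean and SD. The SP28wk libraries run from 830.0 to 3885 CPM and lie above all LP libraries (55.5 to 611 CPM), and the SAL and PRL libraries lie between 914 and 2639 CPM.

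The comparison in experiment 2 asked whether prolactin alone, in females in short photoperiod, changed these genes. No ribosomal protein gene passed, and none of the 10696 genes tested passed an adjusted p of 0.05 in edgeR, or 0.0%. At an unadjusted p under 0.05 edgeR had 522 genes, or 4.88%, with 2.54% higher and 2.34% lower, among them 1 of the 90 members, Rpl41, which was lower in PRL. DESeq2 had none of the members and 3.24% of all genes at that level, and also passed no gene. All members lay between -0.43 and 0.44 on the log2 scale, with a median SE of 0.19. The groups overlapped for every member, whereas 0.112% of all genes were higher and 0.028% lower in PRL without overlap.

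Rpl41 had 1347 CPM in the lowest, 1994 CPM in the median and 2639 CPM in the highest SAL library, and 914, 1495 and 2110 CPM in PRL. The log2 fold change was -0.43 ± 0.21 (SE, adjusted p = 0.994), and an exact permutation test gave p = 0.0974. Rpl37 had 4074, 4738 and 6876 CPM in SAL and 3364, 4361 and 6239 CPM in PRL, with a log2 fold change of -0.32 ± 0.19 (SE). Rpl39 had 2740, 3764 and 5312 CPM in SAL and 2708, 3489 and 3895 CPM in PRL, at -0.30 ± 0.18 (SE). The groups overlapped for all 3.

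On the higher side stood Rpl4, Rpl3, Rpl23a and Rps6. Rpl4, whose loop lines the exit tunnel, had 247, 514 and 690 CPM in the lowest, median and highest SAL library and 380, 587 and 879 CPM in PRL, with a log2 fold change of 0.21 ± 0.21 (SE), and 0.065 to 0.29 when single libraries were left out. Rpl3 had 474, 522 and 621 CPM in SAL and 515, 628 and 781 CPM in PRL, at 0.17 ± 0.18 (SE). Rps6, which is phosphorylated by the S6 kinases that growth signals activate, had 1918, 2516 and 2864 CPM in SAL and 2492, 2632 and 3570 CPM in PRL, at 0.12 ± 0.17 (SE, adjusted p = 0.998). Without PRL replicate 3, the highest library, Rps6 was at 0.02, the lowest of its values with 1 library left out, which reached 0.18. Rps6-ps4 carried the same counts as Rps6 in all libraries of both experiments.

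The medians of PRL against SAL were -0.12 for the small and -0.04 for the large subunit. Relative to the median of 0.03 over all genes they were -0.14 and -0.07. Fitted values were above 0 for 25 of 90 members, or 27.8%, against 52.7% of all genes, and for 35 of 90, or 38.9%, against 58.1% when scaled to library totals. Without PRL replicate 5 it was 37 of 90, with medians, not relative to all genes, of -0.04 and 0.0064, and without PRL replicate 6 it was 9 of 90, with medians of -0.23 and -0.16. Members do not vary independently between libraries. SAL replicate 4 was the highest of the 12 libraries for 22 of the 78 standard subunits and PRL replicate 6 for 23, while PRL replicate 5 was the lowest for 29, and SAL replicate 6 and PRL replicate 2 for 15 each. Highest and lowest libraries thus occurred in both groups. PRL replicate 5, lowest for so many, was the highest library for Rpl3, Rpl4 and Rps3a1.

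By role, the proteins of the P-stalk, which recruits the translation factors with GTPase activity, did not pass in any comparison. Rplp0, the base of the stalk, had 235, 56.1, 222 and 272 CPM in LP, 254 to 402 CPM in SP12wk, 158 to 400.0 CPM in SP28wk, and 102 to 284 CPM in SAL and PRL. Rplp1 had 5127, 561, 2885 and 4389 CPM in LP, 2330 to 4668 in SP12wk and 3636 to 4628 CPM in SP28wk. Rplp2 had 4610, 1234, 2053 and 1748 CPM in LP and 1818 to 3413 CPM in short photoperiod. The spread of Rplp1 and Rplp2 was largest in LP, with replicate 1 highest and replicate 2 lowest. The log2 fold changes of SP28wk against LP were 0.72 ± 0.57 for Rplp0, 0.56 ± 0.46 for Rplp1 and 0.31 ± 0.46 for Rplp2 (SE).

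Rps27a, which is made as a fusion with ubiquitin, and Fau did not pass either. Rps27a had 2587, 2973, 2608 and 4273 CPM in LP and 2741 to 4016 CPM in short photoperiod, and was among the steadiest of the standard subunits in experiment 1. Fau was higher in SP28wk than in LP at 0.98 ± 0.46 on the log2 scale (SE, adjusted p = 0.547), and its LP mean held the library without a read. Rpl5 and Rpl11, which carry 5S ribosomal RNA into the large subunit and bind Mdm2 when ribosome assembly is disturbed, had log2 fold changes of 0.01 ± 0.47 and 0.71 ± 0.45 in SP28wk against LP. Rpl11 had 1787, 1683, 1776 and 3729 CPM in LP, 1758 to 2359 in SP12wk and 2530 to 3438 CPM in SP28wk, so that it was higher in SP28wk than in SP12wk in every library.

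Rps4x, the X-linked form of S4, had 897 to 1398 CPM in LP, 791 to 1456 CPM in SP12wk, 996 to 1423 CPM in SP28wk, 871 to 1166 CPM in SAL and 883 to 1188 CPM in PRL. Rpl10, which joins the large subunit last, had 337 to 721 CPM in LP, 777 to 1187 CPM in SP12wk, 553 to 1285 CPM in SP28wk, 544 to 1198 CPM in SAL and 684 to 1055 CPM in PRL. All groups overlapped for both, apart from LP and SP12wk for Rpl10.

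With copies left aside, most reads among the small subunit fell on Rps27 and Rps29, zinc-binding proteins of the small subunit, and among the large subunit on Rpl37 and, after it, on Rplp1 in experiment 1 and Rpl13a in experiment 2. Rps27 had 10113, 3758, 6104 and 10643 CPM in LP, 8985 to 13578 CPM in SP12wk, 9294 to 10395 CPM in SP28wk, 6357 to 9600 CPM in SAL and 5636 to 8406 CPM in PRL. Rps29 had 11995, 2468, 5715 and 6331 CPM in LP, 6839 to 8257 in SP12wk and 5974 to 8141 CPM in SP28wk. Rpl37 had 5127, 729, 3551 and 6992 CPM in LP and 4889 to 6821 CPM in short photoperiod. In all 3, LP replicate 2 was the lowest of the 12 libraries.

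Rps27 and its retrogene copy Rps27rt had 3124 reads each in experiment 1, with equal counts in all 12 libraries, and 33214 and 33215 reads in experiment 2. Rpl37rt held 96.6% and Rpl32l 103% as many reads as their parent genes in experiment 1, and 129.5% and 101% in experiment 2, where Rpl37rt was the large subunit symbol with most reads. A hamster read that matches both mouse copies cannot be assigned to 1 of them. Paralogs that differ in sequence stood below their partners, with Rps27l at 5.95% of Rps27, Rpl22l1 at 18.8% of Rpl22 and Rpl36al at 65.1% of Rpl36a in experiment 1, and 8.79%, 25.7% and 48.3% in experiment 2. Rps27l, a target of p53, had 376, 56.1, 610 and 621 CPM in LP, 572 to 848 in SP12wk and 486 to 705 CPM in SP28wk, with a log2 fold change of 0.94 ± 0.50 (SE, adjusted p = 0.641) in SP12wk against LP. The paralogs known from muscle and testis were near absent, with 2 reads of Rpl3l and 10 of Rpl10l in all of experiment 2. Of the 10 paralogs listed, 4 were tested in experiment 1 and 7 in experiment 2, and none was at an unadjusted p under 0.05. Of all genes, 7.27%, 6.1% and 8.61% were at that level in SP12wk against LP, SP28wk against SP12wk and SP28wk against LP. In PRL against SAL it was 4.88%, so that with so few paralogs a count of 0 says little about them.

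The spread across libraries differed between the experiments, which also differed in depth. Libraries held 15687 to 57585 reads in experiment 1 and 174053 to 756523 in experiment 2. The coefficient of variation (SD over mean CPM of all 12 libraries) of the 78 standard subunits ranged from 15.2% to 113% in experiment 1, with a median of 34.5%, and from 8.97% to 31.1% in experiment 2, with a median of 18.0%. Rps2 and Rpl41 had the highest values in experiment 1, 113% and 109%, followed by Rpl4 at 64.6% and Rpl3 at 61.9%. Of these, Rps2, Rpl4 and Rpl3 had at most 14, 12 and 15 reads in a library of experiment 1. The part of depth and of LP replicate 2 in these values was not tested. In experiment 2, Rpl4 at 31.1% and Rpl41 at 28.3% were again the most variable, while Rpl21 at 8.97% and Rps2 at 9.71% were among the steadiest.

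Levels of the standard subunits were similar but not equal in the 2 experiments, with a Spearman correlation of 0.768 across the 78 genes, given as a description of libraries that differ in sex, flow cell and depth, which cannot be told apart. Mean levels were over 2-fold higher in experiment 1 for 4 genes and in experiment 2 for 12. Rps15 was the extreme of the first kind, at 673 to 1748 CPM in experiment 1 and 267 to 586 CPM in experiment 2, a ratio of 2.72. Rps21, Rpl37a and Rps18 followed, with ratios of 2.48, 2.19 and 2.12. Rps15 was the only one of these for which every library of experiment 1 lay above every library of experiment 2.

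Of the genes with higher levels in experiment 2, Rps2 had a ratio of 4.41, Rps3a1 of 3.13 and Rpl4 of 3.10. Rps15a, Rpl7a, Rpl9, Rps6, Rpl8, Rpl6, Rpl7, Rpl10a and Rpl21 had ratios between 2.08 and 2.95. Rps3a1 had 280 to 1245 CPM in experiment 1 and 1775 to 2723 CPM in experiment 2, without overlap. Rpl4 had 0 to 388 CPM and 247 to 879 CPM, with overlap. Such shifts were larger than any difference between the groups of experiment 2.

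**Figure D4:**
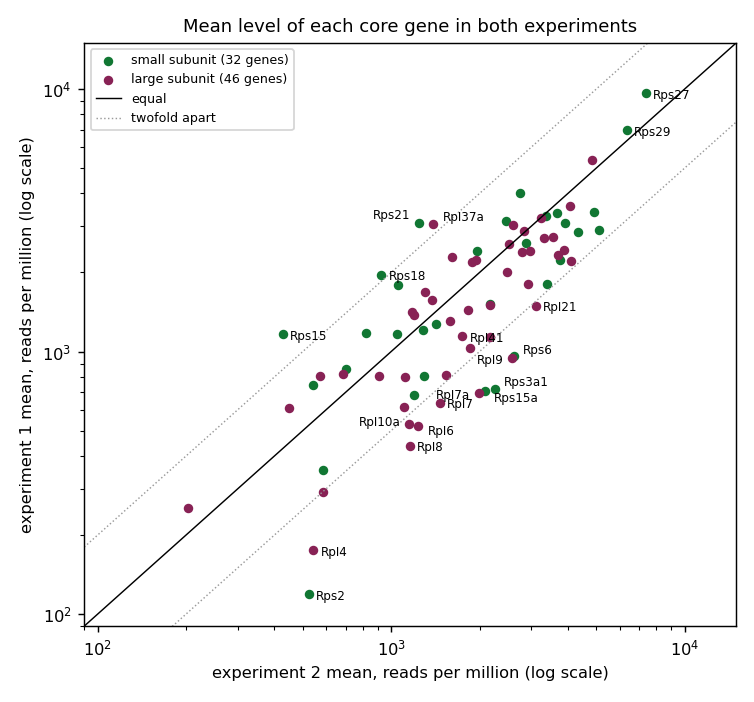
Mean level in CPM of each standard subunit in experiment 2 (x axis) and experiment 1 (y axis), both on log axes, with lines of equal level and of a 2-fold difference. Rps15 lies farthest above the line of equal level and Rps2 farthest below it.

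Related lists of genes were set beside the subunits, chosen with earlier results of these data known. Other TOP mRNAs, such as those of elongation factors, share the 5′ motif of ribosomal protein mRNAs. Of 22 tested in experiment 1, none passed. At an unadjusted p under 0.05, 2 were higher in SP28wk than in LP, against 6.69% of all genes. These were Eef1b2 at 1.34 ± 0.58 and Naca at 1.01 ± 0.51 on the log2 scale (SE). The medians were -0.13, 0.15 and -0.12 for SP12wk against LP, SP28wk against SP12wk and SP28wk against LP. These medians did not share the positive sign of the subunits in the comparisons with LP. In SP12wk against LP that sign depended on LP replicates 2 and 3, without which the subunit medians were -0.13 and -0.06. In SP28wk against LP the subunit medians without them were 0.12 and 0.08, still above 0. These 2 libraries were chosen after their low subunit shares were seen, and the TOP medians without them are not given here. The summed TOP mRNAs were highest in the same libraries, at 17387 and 15815 CPM. The part of these libraries in the contrast was not tested. In experiment 2, 1 of 23 was lower at an unadjusted p under 0.05, Ptges3, against 2.34% of all genes, and the median was -0.01.

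Factors that assemble ribosomes in the nucleolus were read too rarely in experiment 1, where 14 of 42 were tested, none passed and the medians were 0.58, -0.07 and 0.41. In experiment 2, 38 were tested, none was at an unadjusted p under 0.05, against 4.88% of all genes, and the median was 0.26. Mitochondrial ribosomal proteins, which build the separate ribosome of the mitochondrion, summed to 1010 to 5088 CPM in LP, 3924 to 7580 CPM in SP12wk and, in SP28wk, to 4703 to 6582 CPM. Of 51 tested, 7 were higher in SP12wk than in LP and 13 higher in SP28wk than in LP at an unadjusted p under 0.05, with medians of 0.86 and 0.91, and Mrpl34 rose by 2.57 ± 0.54 on the log2 scale (SE, adjusted p = 0.00148) in SP28wk against LP. Of 75 short respiratory chain mRNAs tested, 18 and 19 were higher and 0 and 1 lower at that level, with medians of 0.72 and 0.54, and Ndufb7 rose by 3.32 ± 0.63 (SE, adjusted p = 0.000195) in SP28wk against LP. Of all genes 4.58% were higher at that level in SP12wk and 6.69% in SP28wk. Without LP replicate 2, the counts higher were 3 and 6 of 51 and 6 and 10 of 75, with medians of 0.56 and 0.60 for the mitochondrial ribosomal proteins and 0.44 and 0.24 for the respiratory chain, against 2.95% and 3.59% of all genes, and 1 gene of each list passed in SP28wk against LP. In experiment 2 the medians of these lists were 0.02 and -0.14, and no gene of either passed. With all libraries, mitochondrial ribosomal proteins and respiratory chain mRNAs thus had medians above 0 in the comparisons with LP, as the cytosolic subunits had. LP replicate 2 was the lowest of the 12 libraries for both sums. LP replicates 1 and 4 had 119570 and 93766 CPM of respiratory chain mRNAs, within the 90783 to 121750 CPM of short photoperiod. Their sums of mitochondrial ribosomal proteins were 3810 and 5088 CPM. The medians of these lists without LP replicates 2 and 3 together are not given here.

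Levels of blood mRNAs (5 of 6 markers in the table of experiment 1) summed to 14205 to 28899 CPM in LP, 17519 to 44112 CPM in SP12wk, 20995 to 33240 CPM in SP28wk, 9600 to 18120 CPM in SAL and 8912 to 19498 CPM in PRL. Distal tubule markers summed to 194 to 721 CPM in LP, 0 to 602 in SP12wk and 83.0 to 316 CPM in SP28wk, and fibroblast markers to 166 to 505, 0 to 450 and 166 to 330 CPM. Collecting duct markers summed to 0 to 402 CPM in experiment 1, 419 to 822 CPM in SAL and 407 to 770 CPM in PRL, and adipose markers to 0 to 382, 39.5 to 254 and 78.0 to 315 CPM. At an unadjusted p under 0.05, 1 of 8 collecting duct markers tested and 2 of 4 adipose markers were higher in PRL, against 2.54% of all genes. These were Aqp2 at 0.96 ± 0.46 on the log2 scale (SE), Cfd at 2.14 ± 0.82 and Ucp1 at 1.73 ± 0.81. None of them passed in edgeR, with adjusted p of 0.993, 0.712 and 0.993. The groups overlapped for these lists, and the part of cell composition in the levels of ribosomal protein genes was not tested.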

How the data were processed

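The data were nanopore cDNA reads of kidney tissue from 24 hamsters. The paper states that part of each frozen kidney was sectioned for histology and the rest kept for molecular work. Per the methods, the authors used Guppy to call bases and split barcodes, Porechop to remove adapters, Filtlong to select reads and Minimap2 to align them to mouse. Salmon is named in the submitters' processing notes without its role. The methods name a direct cDNA kit, whereas the labels name a PCR-cDNA kit with the same catalogue numbers, so that it is open whether a read is an amplified molecule. The authors deposited estimated counts per mouse RefSeq transcript, without normalization, of which 2868 of 439944 in experiment 1 and 3447 of 859080 in experiment 2 were not whole. Since hamster reads carry mouse names, a gene that differs from its mouse counterpart may be read less often.

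The members and lists were chosen with earlier results of these data known. Symbols beginning with Rps or Rpl and a digit, and Rpsa, Rplp0, Rplp1, Rplp2 and Fau, were kept without the Rps6k kinases and without 22 pseudogene symbols per experiment, which held between 1.72% and 3.26% of the reads of any library. Each gene was represented by 1 transcript, the one with most reads, because summing may count a read several times. Rounded counts were fitted with edgeR 4.0.16 (R 4.3.3) by its quasi-likelihood method, 1 model per experiment, scaled by TMM and without covariates. TMM scales libraries by a trimmed mean of gene ratios. A gene was tested if 4 or more of the 12 libraries held a read of it (6 or more in experiment 2), as was so for 87 of 90 and 90 of 91 members. A gene passed at a Benjamini-Hochberg adjusted p under 0.05 over all genes tested. The SE of a log2 fold change was its absolute value over the square root of F. Rpl41 and Rps2 were also compared by two-sided exact permutation tests of mean CPM, whose smallest p is 0.0286 for 4 against 4 and 0.00216 for 6 against 6 libraries. Summed shares and medians of a list were not tested. The level of 3 reads, given for Rpsa in LP replicate 2, covers counting error only.

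The 3 groups of experiment 1 were compared pairwise, so that comparisons share libraries, and PRL was compared with SAL. Genes named are the 3 most and 2 least read members of each subunit and experiment, up to 4 of lowest p for each comparison and direction, those that passed, and members by role with the paralogs. Others were named after their values were seen. A few members are counted but not reported by name here, and the heat map leaves them out. Alternatives were no filter, a stricter filter (8 of 12 and 12 of 12 libraries), DESeq2 1.42.0, library totals without TMM, TMM without ribosomal protein genes, sums over transcripts, a block for the replicate number and leaving out each library. Leaving out LP replicates 2 and 3, and leaving out copies and paralogs, were chosen after seeing the data. Libraries of a group differed beyond counting noise, by chi-square values of 1.89 to 10.1 times their degrees of freedom. The fitting code was tested on simulated data. No sequences were printed, since no reference was used here.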

Additional observations from a re-analysis of the deposited data

Results flagged for a closer look

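Among 232 groups of values, 13 held a library far from the others of its group, and chance gives about 1 in 20. Of these, 7 are members with a few reads at most, in which 1 library had a read and the others none. Rpl10l had 55.5 CPM in LP replicate 3, Rps19bp1 56.1 CPM in LP replicate 2, Rpl7l1 50.2 CPM in SP12wk replicate 3 and 28.6 CPM in SP28wk replicate 3, Rpl39l 57.1 CPM in SP28wk replicate 3, and Rpl3l 3.20 CPM in SAL replicate 6 and 1.32 CPM in PRL replicate 2.

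The others are members with reads in most libraries. Rpl11 had 3729 CPM in LP replicate 4 against 1683 to 1787 CPM in the other LP libraries. Rpl4 had 343 CPM in SP28wk replicate 3 against 139 to 166 CPM, which rests on 12 reads against 4, 4 and 8. Rps12 had 1037 CPM in SP28wk replicate 2 against 2085 to 2292 CPM. In PRL replicate 3, Rpl17 had 2981 CPM against 1601 to 1854 CPM and Rps6 3570 CPM against 2492 to 2745 CPM in the other PRL libraries. Rpl36a had 2459 CPM in PRL replicate 6 against 1620 to 1908 CPM.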

How the results depend on the processing

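Of 348 recomputed counts, medians and shares, 290 stayed within the spread or within 1.5 times of the value given, and 58 moved. Without filter, with the stricter filter, DESeq2, library totals, sums over transcripts or the replicate block, 0 genes passed in SP12wk against LP (1 before), and 2 without LP replicates 2 and 3. In SP28wk against SP12wk (7 before), 2 passed with the stricter filter or DESeq2 and 0 with sums, and the ribosomal protein genes went from 1 to 0 in these. In SP28wk against LP (11 before), 5 passed with the stricter filter, 2 with DESeq2 or without LP replicates 2 and 3, and 0 with sums, where the ribosomal protein genes were at 0. In PRL against SAL (0 before), 92 passed without filter, 1 with sums and 94 with the replicate block, none of them a ribosomal protein gene. Same-numbered libraries did not deviate together (correlations of -0.0501 to 0.0863), which gives no sign of a pairing by number. Correlations near 0 cannot exclude such a pairing, and the main fit had none.

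Without LP replicates 2 and 3 the medians of SP28wk against LP, not relative to all genes, were 0.12 (small) and 0.0835 (large). Sums over transcripts gave small subunit shares of 6.74% in SP12wk, 6.92% in SP28wk, 7.12% in SAL and 6.58% in PRL and large subunit shares of 7.19%, 7.49%, 8.38% and 8.00%. Without copies and paralogs the small subunit took 7.47% in SP12wk and 7.93% in SP28wk.

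Leaving out 1 library at a time, the number of genes that passed was 0 to 8, 2 to 8, 8 to 54 and 0 to 44 in the 4 comparisons in that order. The number of ribosomal protein genes that passed was 0, 0 to 1, 1 to 5 and 0. The highest counts, 54 of 4888 genes tested and 5 of 87 members, came without LP replicate 4. The count of 44, of 10490 genes tested, came without PRL replicate 4. The small subunit medians, not relative to all genes, were -0.0012 to 0.65, 0.222 to 0.43, 0.33 to 0.913 and -0.234 to -0.0428. The large subunit medians, likewise not relative to all genes, were 0.0913 to 0.729, 0.0793 to 0.251, 0.336 to 0.923 and -0.156 to 0.0064. Small subunit shares were 6.49% to 8.43% in LP, 8.40% to 8.78% in SP12wk, 8.73% to 9.13% in SP28wk, 8.62% to 9.28% in SAL and 8.13% to 8.78% in PRL, and large subunit shares 6.35% to 8.62%, 8.65% to 9.37%, 9.08% to 9.80%, 10.3% to 11% and 9.95% to 10.6%.

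Signs turned for genes near 0. In SP12wk against LP, leaving out 1 library gave Rps12 -0.4451 to 0.0351 and Rps7 -0.4517 to 0.0893, the higher values without LP replicate 4. Rps19bp1 has 1 read in LP and none in SP12wk, and its fitted value ran from -2.0117 to 0.00, the latter where the library with that read, LP replicate 2, was left out, alone or with replicate 3. In SP28wk against LP it gave Rpl30 -0.3235 to 0.14 and Rpl6l -0.734 to 0.33, and Rpl30 was at 0.0109 without filter and Rpl6l at 0.0127 without LP replicates 2 and 3. In PRL against SAL Rpl23a ranged from -0.024, without PRL replicate 6, to 0.223. The cause was not tested. In experiment 1, 30 standard subunits had under 10 reads in LP replicate 2, which limits what can be said of single genes there.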
